A study of Homo sapiens with 2 samples.

Results

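Accessible chromatin was examined at 9 genes of the Notch pathway in CAL27 cells, a human line grown from a squamous cancer of the tongue. The genes are the receptors NOTCH1, NOTCH2 and NOTCH3, the ligands JAG1, JAG2 and DLL1, and the target genes HES1, HEY1 and HEYL. A region was counted for a gene when it overlapped the gene body or the 50 kb beyond either annotated end (RefSeq, GRCh38.p14, the same build as the hg38 of the files). After overlapping regions of the 2 libraries had been merged, this gave 111 regions of 130506 in all, each belonging to 1 of the 9 genes only. The libraries came from cells kept in 10 mM lactate for 24 h and from cells whose treatment is given as none. Chromatin was opened to the Tn5 transposase (ATAC-seq), which cuts accessible DNA and leaves sequencing adapters at the cuts. Each condition has a single library and no replicate, so no test was made, and every difference below is one between 2 libraries.

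Notch receptors are membrane proteins that are cut when a Jagged or Delta ligand on a neighbouring cell binds them. The freed intracellular part enters the nucleus, joins the DNA-binding protein RBPJ and a Mastermind coactivator, and switches on target genes, foremost the HES and HEY repressors. In stratified squamous epithelium NOTCH1 is known for driving cells out of the basal layer, and inactivating NOTCH1 mutations are frequent in squamous carcinomas of the head and neck. RBPJ recognises the letters TGGGAA, often preceded by G, and the HES1 promoter is a textbook example of a promoter with RBPJ sites.

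The promoter windows of the target genes HES1 and HEYL are shown because they were the members' windows that held the RBPJ letters, and because regions listed in both libraries covered 299 of the 300 bases of the HES1 window and the whole HEYL window. They run from 250 bases before to 50 after the annotated start (RefSeq, GRCh38.p14), at chr3:194135898-194136197 on the plus strand for HES1 and chr1:39639594-39639893 on the minus strand for HEYL. Capitals mark TGGGAA on either strand.
HES1: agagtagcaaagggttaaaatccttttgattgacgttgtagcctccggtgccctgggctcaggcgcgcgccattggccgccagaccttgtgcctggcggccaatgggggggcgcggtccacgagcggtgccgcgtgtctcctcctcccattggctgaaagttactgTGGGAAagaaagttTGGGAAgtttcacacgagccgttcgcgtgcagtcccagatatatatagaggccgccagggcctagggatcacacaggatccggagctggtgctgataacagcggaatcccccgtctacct
HEYL: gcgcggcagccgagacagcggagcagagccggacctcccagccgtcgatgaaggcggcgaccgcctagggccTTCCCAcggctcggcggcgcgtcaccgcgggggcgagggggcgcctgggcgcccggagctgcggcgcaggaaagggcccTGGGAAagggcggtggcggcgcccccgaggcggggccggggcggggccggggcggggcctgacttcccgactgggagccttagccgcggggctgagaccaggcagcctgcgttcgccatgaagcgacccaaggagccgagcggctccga
HES1 held TGGGAA at 84 and 70 bases before the start, both on the strand shown, and HEYL at 99 bases before the start on that strand and at 178 bases before it on the other. In each promoter 1 of the matches also spelled GTGGGAA, which contains the shorter motif. TGGGAA on either strand was found in 24.3% of the 27305 promoter windows of the table and GTGGGAA in 6.28%. A window with TGGGAA more than once, as in these 2 genes, made up 3.81%, and with matches starting no more than 30 bases apart, as in HES1, 0.773%. HES1 also held CACGCG and CACGAG, letters bound by HES proteins, at 2 places each. CACGCG was found in 11.4% and CACGAG in 6.79% of all windows. The letters CACGTG (7.43% of windows) and TGANTCA, the AP-1 motif (7.76%), were in none of the 7 member windows in the table.

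A contrast in listing is shown by the promoters of NOTCH3 and JAG2, in which neither library had a region, beside that of NOTCH1, which lay wholly inside a merged region listed in both. Capitals mark the CG dinucleotides.
NOTCH3: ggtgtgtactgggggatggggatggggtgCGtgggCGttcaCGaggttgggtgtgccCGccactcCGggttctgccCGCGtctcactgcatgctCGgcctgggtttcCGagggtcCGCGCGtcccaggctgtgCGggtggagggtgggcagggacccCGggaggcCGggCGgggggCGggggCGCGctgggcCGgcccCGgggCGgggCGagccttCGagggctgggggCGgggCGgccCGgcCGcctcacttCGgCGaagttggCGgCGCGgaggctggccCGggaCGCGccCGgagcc
JAG2: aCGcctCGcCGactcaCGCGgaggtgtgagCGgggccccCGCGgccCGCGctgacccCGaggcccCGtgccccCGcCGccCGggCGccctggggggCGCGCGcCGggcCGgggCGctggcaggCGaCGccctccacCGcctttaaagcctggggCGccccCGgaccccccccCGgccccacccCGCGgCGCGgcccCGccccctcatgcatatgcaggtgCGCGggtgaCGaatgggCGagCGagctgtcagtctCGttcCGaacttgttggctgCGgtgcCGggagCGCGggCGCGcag
NOTCH1: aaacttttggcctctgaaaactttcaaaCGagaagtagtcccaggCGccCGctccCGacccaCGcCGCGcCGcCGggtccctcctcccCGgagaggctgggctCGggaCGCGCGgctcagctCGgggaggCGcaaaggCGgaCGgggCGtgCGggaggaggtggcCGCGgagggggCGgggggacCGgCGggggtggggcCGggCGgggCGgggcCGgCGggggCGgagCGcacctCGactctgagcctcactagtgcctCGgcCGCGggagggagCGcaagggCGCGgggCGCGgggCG
These windows lie on the minus strand at chr19:15200946-15201245 for NOTCH3, chr14:105168727-105169026 for JAG2 and chr9:136545999-136546298 for NOTCH1. NOTCH3 held 37 CG dinucleotides, JAG2 46 and NOTCH1 42, against a median of 14 over all windows. Their GC contents were 78.3%, 79.7% and 77.0%, and the median window had 58.3%. All were thus rich in CG, the listed and the unlisted promoters alike. For DLL1 and HEY1 the start was taken as either annotated end of the gene. The same was done for every protein-coding gene without a promoter entry, and 15811 of 19970 had one. Counts of start-site regions and of nearest starts below thus take in some gene ends that are not starts.

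The lactate library held 15401276 tags and the untreated library 18248413. Across all 86803 regions listed in both, the lactate library had the higher summit, with a median ratio of 1.65 after division by total tags, and 1.67 in the 67112 of them within 50 kb of a protein-coding gene. Members are therefore also set against regions of equal height. Of the squamous keratinocyte markers 13 of 16 had a region of each list within 1 kb of the start. KRT6B had one in the lactate list alone, and KRT14 and TP63 had none. The count was 3 of 9 for fibroblast, 5 of 9 for leukocyte, 2 of 8 for endothelial and 3 of 8 for neuronal markers, beside 59.6% of all protein-coding genes.

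Chromatin at the Notch genes was open at much the same places in both libraries, and regions listed in both stood higher in the lactate library about as often as shared regions elsewhere. Of the 111 regions, 72 were listed in both libraries, 33 in the lactate list alone and 6 in the untreated list alone. The lactate-only share was 29.7% (exact 95% binomial interval 21.4 to 39.1), near the 25.6% of all regions within 50 kb of protein-coding genes, and the untreated-only share was 5.41% beside 7.11%. The lactate list is the longer one. With both lists cut to equal length by fold enrichment, 20 of the members' regions were in the lactate list alone and 18 in the untreated list alone. The listing in both covered 64.9% of the members' regions and 67.3% of those near any protein-coding gene.

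Height is the pileup of extended tags at the summit. Divided by all tags of the library and multiplied by 1000000 it is given here in RPM. A single tag is worth 0.0649 RPM in the lactate and 0.0548 RPM in the untreated library. The 105 regions of the lactate list had 6 to 360 summit tags with a median of 27, and the 78 regions of the untreated list 7 to 272 with a median of 24. Of the 72 shared regions, 67 had a lactate-to-untreated ratio above 1, beside 88.7% of all shared regions, and 26 had a ratio of 2 or more, beside 29.3%. The members' median ratio was 1.72, with a range of 0.856 to 3.55. Scaled so that the median over all shared regions is 1, the members' median ratio was 1.04 and 42 of the 72 lay above 1. In 39 of the 72 the exact conditional Poisson interval of the ratio lay above 1, beside 44.4% of all shared regions, and in none below 1, beside 0.256%. The ratio itself was below 1 in 5 of the 72, beside 11.3%. All intervals here are 95% intervals. They cover counting error alone, not the spread between replicates. In the shared regions the summits of the 2 libraries lay a median of 22 bp apart, with 62 of 72 within 100 bp. Shared regions overlap by definition, which in itself keeps their summits close. The same share over all shared regions is not given here, so nothing particular to the members is read from it.

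**Figure D1:**
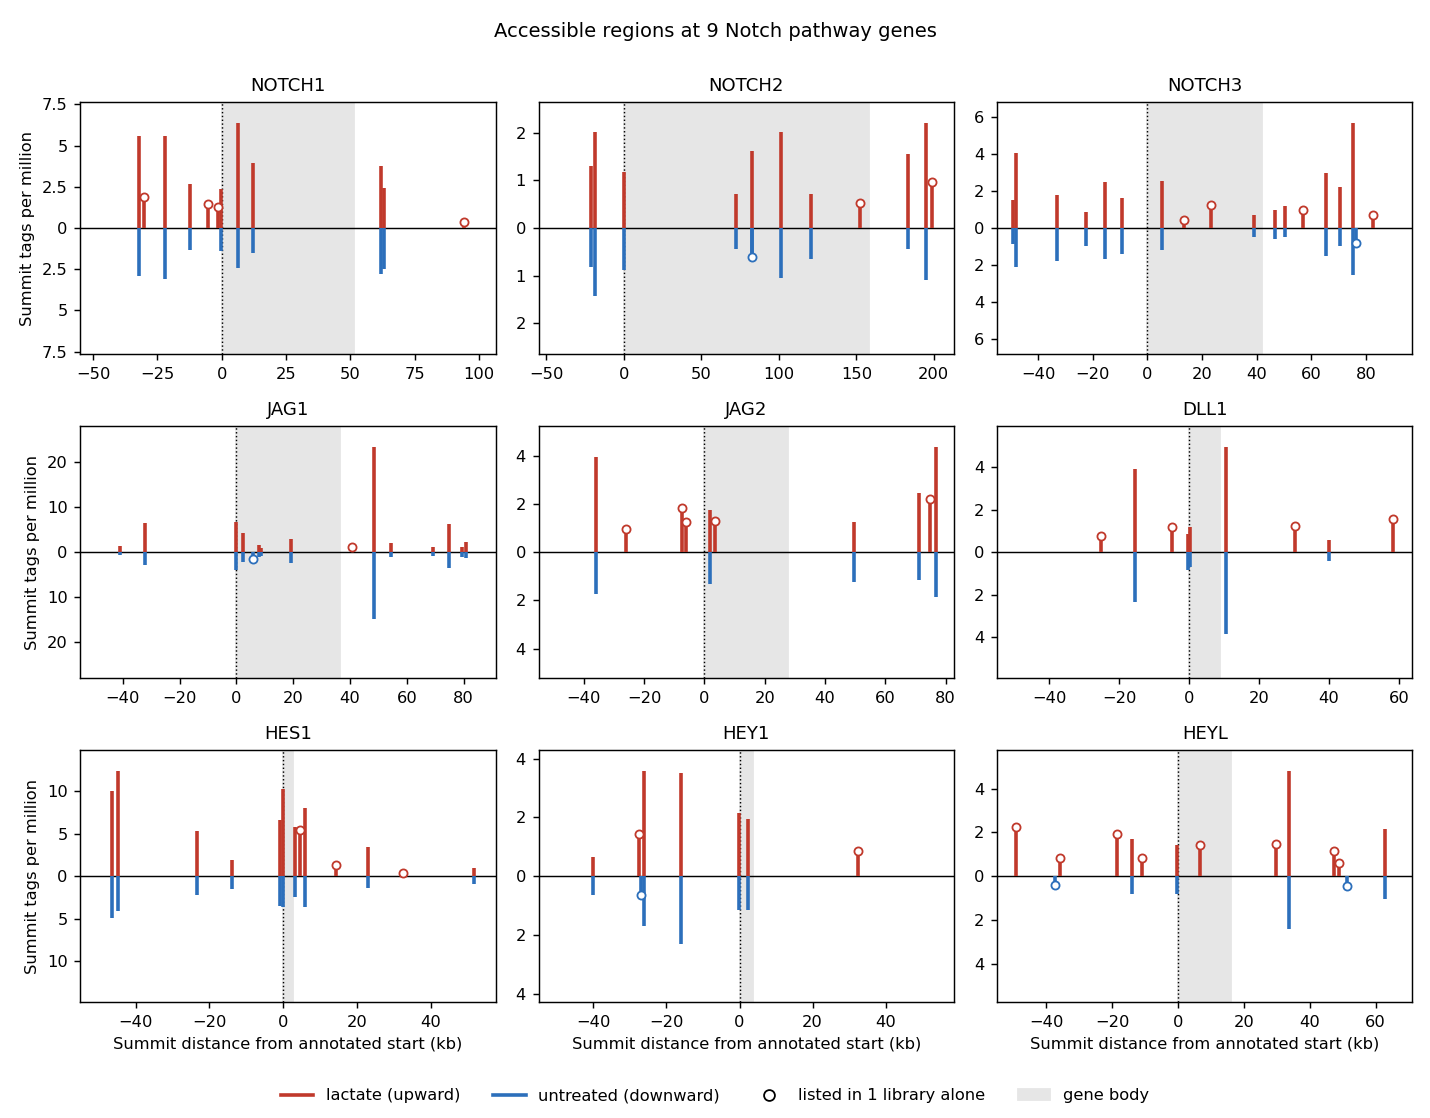
Summit height in RPM (tags per 1000000 total tags, vertical axis, lactate upward and untreated downward, 1 library each) against distance from the annotated start in kb at the 9 genes, with the gene body shaded and open circles for regions listed in 1 library alone. For DLL1 and HEY1 distance runs from the upper-coordinate end toward the lower. HES1 shows tall regions around its start and near -45 kb, and JAG1 the single tallest region, 23.4 RPM in the lactate and 14.9 in the untreated library.

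NOTCH1, the receptor whose loss is tied to squamous cancers, had 12 regions, 8 of them shared and 4 in the lactate list alone. Its start-site region (chromosome 9, 136545941 to 136546984) had 36 lactate and 25 untreated tags, or 2.34 and 1.37 RPM, a ratio of 1.71 (0.996 to 2.97). The tallest region of NOTCH1 in the lactate library lay in the gene body 6.2 kb past the start (136539626 to 136540288), with 98 lactate and 44 untreated tags, 6.36 and 2.41 RPM. The next region, 12.1 kb past the start (136533618 to 136534377) had 61 lactate and 28 untreated tags. Both gene-body regions had high ratios for this gene, 2.64 (1.83 to 3.86) and 2.58 (1.62 to 4.19). In the untreated library the tallest region was another one, 22.1 kb upstream (136567634 to 136568670), with 86 lactate and 56 untreated tags. A region 32.1 kb upstream had 86 and 53 tags. The lactate library thus placed the gene-body region first and the untreated library the upstream pair, but in both the counting intervals overlapped. In the lactate library they were 5.17 to 7.75 RPM for the gene-body region and 4.47 to 6.90 for either upstream region. In the untreated library the gene-body interval was 1.75 to 3.24 RPM, and those of the upstream pair began at 2.32 and 2.18.

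Beyond the far end of NOTCH1 the picture differed. The region 63 kb from the start (136482855 to 136483291), next to SEC16A, which encodes a scaffold of endoplasmic reticulum exit sites, had 37 lactate and 45 untreated tags, a ratio of 0.974 (0.613 to 1.54). The adjoining region over the SEC16A start (136483486 to 136485329) had 58 lactate and 51 untreated tags, a ratio of 1.35 (0.909 to 2.00). Neither interval lay above 1, while those of both gene-body regions did. The difference between the regions was not tested. The tallest NOTCH1 region in the lactate list alone lay 30.4 kb upstream (136576368 to 136576584), with 29 tags.

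NOTCH2, a receptor whose long gene has near-identical partial copies elsewhere on chromosome 1, had low regions throughout, and heights in the copied part are uncertain. Of its 12 regions 9 were shared, 2 were in the lactate list alone and 1 in the untreated list alone, and no summit passed 34 tags in the lactate or 26 in the untreated library. The start-site region (chromosome 1, 120069128 to 120070095) had 18 lactate and 16 untreated tags, 1.17 and 0.877 RPM, a ratio of 1.33 (0.642 to 2.79). Levels so low leave wide intervals. The region with the highest ratio of all members lay 183.3 kb from the NOTCH2 start, beyond the far end of the gene toward ADAM30 (119886206 to 119886663), with 24 lactate and 8 untreated tags, 1.56 and 0.438 RPM. Its ratio was 3.55 (1.54 to 9.15), from few tags. The tallest lactate region, 195 kb from the start (119874528 to 119874751), had 34 lactate and 20 untreated tags, and the tallest untreated one, 18.5 kb upstream (120088013 to 120088303), had 31 and 26. In the lactate list alone the taller region (119871023 to 119871231) had 15 tags, and the untreated-only region (119986751 to 119986952) had 11.

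NOTCH3, a receptor of vascular smooth muscle that epithelial cells also carry, had no region within 1 kb of its annotated start in either library. The nearest one lay in the gene body 5.2 kb past the start (chromosome 19, 15195442 to 15196371), with 39 lactate and 22 untreated tags, 2.53 and 1.21 RPM, a ratio of 2.10 (1.22 to 3.72). Of 18 regions 13 were shared, 4 were in the lactate list alone and 1 in the untreated list alone. The tallest lay 75.2 kb from the start over the start of the neighbour HACL2 (15125147 to 15126019), with 87 lactate and 46 untreated tags. Upstream and downstream regions of NOTCH3 stood apart in ratio. The 6 shared upstream regions had ratios of 0.856 to 1.93 with a median of 1.32, and the 5 shared downstream regions 1.62 to 2.37 with a median of 2.24. The lactate-only regions had up to 19 tags (15177524 to 15177839, in the gene body), and the untreated-only region (15124713 to 15124952) had 15.

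JAG1, a Jagged ligand, had the most evenly listed window, with 13 of 15 regions shared and 1 in each list alone. Its start-site region (chromosome 20, 10673871 to 10674617) had 103 lactate and 74 untreated tags, 6.69 and 4.06 RPM, a ratio of 1.65 (1.21 to 2.25). Inside this region each library had a pair of summits, and the order of heights differed. In the lactate library the summit 34 bases before the start had 103 tags and the one 385 bases before it 91. In the untreated library the summit 45 bases before the start had 61 tags and the one 370 bases before it 74. The lower summit lay inside the counting interval of the taller one in both libraries. It had 5.91 RPM in the lactate library, where that interval was 5.46 to 8.11. In the untreated library it had 3.34 RPM, and the interval was 3.18 to 5.09. The tallest region of all members lay 48.5 kb from the JAG1 start, past the far end of the gene (10625391 to 10625611), with 360 lactate and 272 untreated tags and a ratio of 1.57 (1.34 to 1.84). It was 221 bp wide with 1 summit and stood in the top 0.834% of the lactate list and the top 0.791% of the untreated one by height. Narrow single-summit regions of about this width made up 16.1% of all lactate regions and 17.3% of all untreated regions.

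Other JAG1 regions ranged from 14 to 100 lactate tags and from 12 to 66 untreated tags where shared. The 4 shared regions of the gene body had ratios of 1.11 to 1.81. The tallest upstream region, 32.1 kb before the start (10705697 to 10706476), had 100 lactate and 52 untreated tags, a ratio of 2.28 (1.61 to 3.25). The untreated-only region in the gene body (10667887 to 10668087) had 27 tags, the tallest of the members' 6 untreated-only regions, and the lactate-only region (10633223 to 10633468) had 17. JAG1 was the member with the lowest share of lactate-only regions, 6.67% (0.169 to 31.9).

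JAG2, the other Jagged ligand, had no region within 1 kb of its annotated start. The nearest shared region lay 1.9 kb past the start (chromosome 14, 105165803 to 105167465), a broad one with 4 lactate and 3 untreated summits. Its tallest summits had 27 lactate and 24 untreated tags, a ratio of 1.33 (0.740 to 2.41). Of 10 regions 5 were shared and 5 were in the lactate list alone. The tallest (105091604 to 105092345) lay 76.9 kb from the start, nearer to the start of GPR132, which encodes a G protein-coupled receptor, with 67 lactate and 34 untreated tags. The tallest lactate-only region (105093848 to 105094076) had 34 tags.

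DLL1, a Delta ligand, had 9 regions, 5 shared and 4 in the lactate list alone. Near its upper-coordinate end stood a pair of low regions (chromosome 6, 170290241 to 170290968 and 170291435 to 170291667). The first, which also covered the annotated start of the neighbour FAM120B, had 18 lactate and 13 untreated tags, a ratio of 1.64 (0.760 to 3.64). The other had 13 lactate and 15 untreated tags, a ratio of 1.03 (0.450 to 2.31). The tallest DLL1 region lay 10.6 kb from the upper end, just past the lower end of the gene (170279946 to 170280784), with 76 lactate and 70 untreated tags, 4.93 and 3.84 RPM. The shared DLL1 regions had the lowest median ratio of the 9 genes, 1.33, from 5 regions. Once ratios were divided by the median ratio of regions of equal height, the median was 0.908 at DLL1 and lower at JAG1, 0.882. The tallest lactate-only region (170232710 to 170232929) had 24 tags.

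HES1, the repressor that Notch signalling switches on most directly, had the tallest start-site region in the lactate library. At the start (chromosome 3, 194135899 to 194136559), the merged region that holds all but the first base of the promoter window printed above, there were 158 lactate and 67 untreated tags. That is 10.3 RPM (exact Poisson interval 8.72 to 12.0) in the lactate and 3.67 (2.85 to 4.66) in the untreated library, a ratio of 2.79 (2.09 to 3.78). The lactate summit lay 7 bases before the start and the untreated summit 16 bases after it. A lactate summit of 85 tags 310 bases after the start had no listed counterpart in the untreated library. A region with its summit about 1 kb upstream (194134766 to 194135276) had 102 lactate and 65 untreated tags, a ratio of 1.86 (1.35 to 2.58).

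Around HES1 the regions formed a cluster of 7.6 kb (194134766 to 194142414), made of 5 lactate and 4 untreated regions. The local background, which the peak caller takes from the surrounding 10 kb, was high there in both libraries, 1.98 to 2.95 RPM in the lactate and 0.825 to 1.23 in the untreated library. The authors' fold enrichment over it was 4.36 at the lactate start region and 3.34 at the untreated one. The tallest lactate-only region of all members belonged to this cluster (194140542 to 194141088), with 84 tags at a fold of 2.05. The threshold for listing moves with the local background, and the lists give no height for a place that is not listed. On both sides of it shared regions had 89 lactate and 44 untreated tags (194139198 to 194139825) and 123 lactate and 66 untreated tags (194141222 to 194142414), with ratios of 2.40 (1.65 to 3.52) and 2.21 (1.62 to 3.02).

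Far upstream of HES1 stood another tall pair. The region 44.8 kb before the start (194091083 to 194091610) had 190 lactate and 74 untreated tags, 12.3 and 4.06 RPM, a ratio of 3.04 (2.31 to 4.04). Its neighbour 46.4 kb before the start (194089296 to 194090118) had 155 lactate and 89 untreated tags, a ratio of 2.06 (1.58 to 2.71), and was the tallest HES1 region of the untreated library. Both lie nearer to the start of the uncharacterised gene LOC102724877 than to that of HES1. Over the 10 shared HES1 regions the median ratio was 2.29, the highest of the 9 genes before any allowance for height. The interval of the ratio lay above 1 in 8 of 10, beside 44.4% of all shared regions. That share covers regions of all heights, and intervals narrow as tags rise. The HES1 regions of the lactate list had a median of 84 tags, beside 22 over the whole list. After division by the median ratio of regions of equal height, the highest median was at JAG2, 1.26 over 5 regions, and HES1 came next. On that measure the interval excluded 1 in 2 of the 10 HES1 regions, beside 12.0% of all shared regions. Of the 10, 6 lie nearer to the start of HES1 than to any other protein-coding start. Both annotated ends of LOC102724877 counted as starts here, so more than 6 may lie nearest to HES1.

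HEY1, a repressor of the HEY family, had 8 regions, of which 5 were shared, 2 were in the lactate list alone and 1 was in the untreated list alone. The region over its upper-coordinate end (chromosome 8, 79767469 to 79768641) had 33 lactate and 21 untreated tags, 2.14 and 1.15 RPM, a ratio of 1.86 (1.05 to 3.39). Taller regions lay about 26.1 kb and 15.9 kb beyond that end. The farther one (79793442 to 79794153) had 55 lactate and 31 untreated tags, a ratio of 2.10 (1.33 to 3.38), and was the tallest of the lactate library. The nearer one (79783449 to 79784416) had 54 and 42 tags, a ratio of 1.52 (0.999 to 2.34), and was the tallest of the untreated library. The lactate-only regions had up to 22 tags (79795060 to 79795348), and the untreated-only region (79794667 to 79794875) had 12.

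HEYL, the related repressor on chromosome 1, was the member with the fewest shared regions in proportion, 4 of 14, with 8 in the lactate list alone and 2 in the untreated list alone. The lactate-only share was 57.1% (28.9 to 82.3), whose interval lies above the 25.6% of all regions near protein-coding genes. It is the highest of 9 such shares, chosen after the values were seen, and only 3 of the 8 lie nearer to the start of HEYL than to that of a neighbour. The start-site region (39639249 to 39640149), which holds the whole promoter window printed above, had 22 lactate and 15 untreated tags, 1.43 and 0.822 RPM, a ratio of 1.74 (0.862 to 3.60). The tallest region (39605828 to 39606776), 33.6 kb from the start toward PABPC4, which encodes a poly(A)-binding protein, had 74 lactate and 44 untreated tags. A lactate-only region in the gene body (39632894 to 39633215) had 22 tags, as many as the start-site region. The tallest lactate-only region (39688785 to 39689031) had 35 tags, and the taller of the untreated-only regions (39588211 to 39588490) had 8.

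Set side by side by height, the start sites formed 2 tiers in both libraries. The tiers do not hold for the fold over local background, which was high around HES1. By fold HES1 stood at 4.36 in the lactate library, where only DLL1 was lower, at 3.82. In the untreated library it stood at 3.34, the lowest of these start sites. JAG1 had folds of 8.20 and 6.74, and the low NOTCH2 region 9.22 and 5.59. The orders that follow are those of height. In the lactate library the order was HES1 at 10.3 RPM (8.72 to 12.0), JAG1 at 6.69 (5.46 to 8.11), NOTCH1 at 2.34 (1.64 to 3.24), HEY1 at 2.14 (1.47 to 3.01), HEYL at 1.43 (0.895 to 2.16), then NOTCH2 and DLL1 at 1.17 each (0.693 to 1.85). In the untreated library JAG1 came first at 4.06 (3.18 to 5.09), followed by HES1 at 3.67 (2.85 to 4.66), NOTCH1 at 1.37 (0.887 to 2.02), HEY1 at 1.15 (0.712 to 1.76), NOTCH2 at 0.877 (0.501 to 1.42), HEYL at 0.822 (0.460 to 1.36) and DLL1 at 0.712 (0.379 to 1.22). HES1 stood above JAG1 beyond the counting intervals in the lactate library, while the untreated intervals of the 2 genes overlapped. Among the genes below these 2, neighbours in either order had overlapping intervals. A region of each list within 1 kb of the start was found at 7 of 9 members, beside 59.6% of all protein-coding genes, and at neither library's start for 2 of 9, beside 34.4%.

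**Figure D2:**
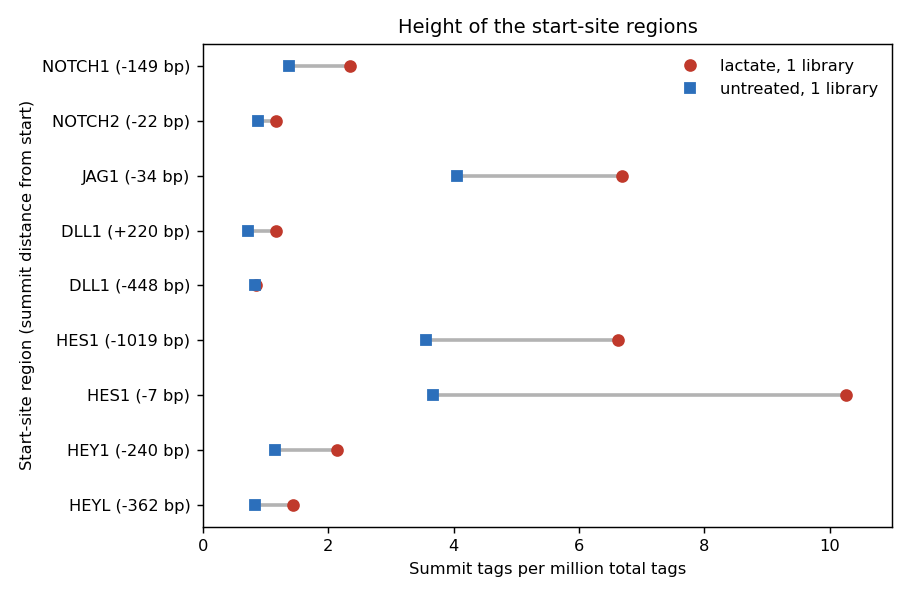
Height of each start-site region in RPM (summit tags per 1000000 total tags, horizontal axis), with a circle for the lactate library, a square for the untreated library, and the lactate summit's distance from the start in brackets. All 9 regions were taller in the lactate library, as were 88.7% of all shared regions, and in 4 of the 9 the interval of the ratio lay above 1. Their median ratio was 1.71, beside 1.84 for the start-site regions of all protein-coding genes. The HES1 region at the start differed most, 10.3 against 3.67 RPM.

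Because the ratio depends on height over the whole genome, each shared region was also divided by the median ratio of all shared regions with like numbers of tags in the libraries together (20 groups of equal size). This relative ratio is 1 for a region that differs between the libraries as its peers do. The members' median was 1.07, with 42 of 72 above 1, beside 48.3% of all shared regions. A relative ratio of 1.5 or more was found in 3 regions, beside 11.7%, and one of 1/1.5 or less in 4, beside 13.0%. In 6 of 72 the interval excluded 1, beside 12.0% of all shared regions. These counts moved with the processing, to 10 regions at 1.5 or more when the summits of a region were summed, and to 8 at 1/1.5 or less when narrow regions were left out of the regions of equal height.

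By role, the median relative ratio was 1.12 over 30 shared receptor regions, 0.895 over 23 ligand regions and 1.12 over 19 target regions. Before this scaling the medians were 1.76, 1.60 and 2.05. JAG1 gave 13 of the ligand regions, and 10 of these 13 lay below 1. Without JAG1 the ligand median was 0.992 over 10 regions, and without HES1 the target median was 1.10 over 9 regions.

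Among the 70 shared regions with at least 20 tags in the libraries together, the 5 highest relative ratios belonged to NOTCH and HES1 regions. They were 2.33 (1.01 to 6.01) at the region past the far end of NOTCH2, 1.62 (0.693 to 4.11) at a region of 18 lactate and 9 untreated tags 50.4 kb from the NOTCH3 start, and 1.60 (1.21 to 2.12) at HES1 -44.8 kb. A region in the NOTCH2 body with 25 lactate and 13 untreated tags had 1.47 (0.722 to 3.12), and NOTCH1 +12.1 kb had 1.45 (0.914 to 2.36). Of these, the HES1 region was the one with many tags. The HES1 start-site region came close behind at 1.44 (1.08 to 1.95), and the region 1 kb upstream of it had 0.959 (0.696 to 1.33).

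The 5 lowest were spread over receptors and ligands, and 4 of them are given here. They include 0.554 (0.348 to 0.875) next to SEC16A at NOTCH1 and 0.562 (0.253 to 1.21) at a region of 13 lactate and 18 untreated tags 22.5 kb upstream of NOTCH3. JAG2 had 0.611 (0.314 to 1.17) at a region of 19 lactate and 23 untreated tags (105118912 to 105119410), and DLL1 had 0.679 (0.484 to 0.953) at its tallest region. The tallest JAG1 region, with 360 and 272 tags, had 0.823 (0.701 to 0.967). Low values here mean that the lactate height exceeded the untreated one by less than at regions of equal height, or not at all. None of these regions had an interval of the ratio before scaling that lay below 1.

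**Figure D3:**
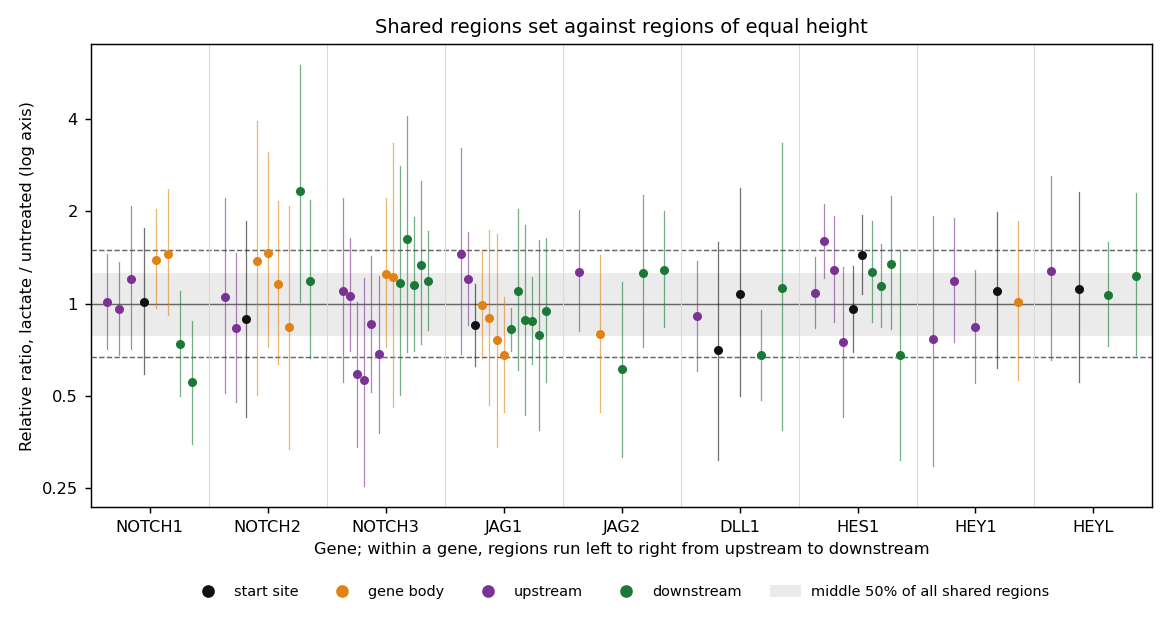
Relative ratio of lactate over untreated height (log axis) for the 72 shared regions of the 9 genes, 1 point per region with its 95% counting interval, coloured by position. The grey band holds the middle 50% of all shared regions, 0.789 to 1.25, and dashed lines stand at 1.5 and its inverse. Most intervals cross 1. Of the 6 that do not, the HES1 regions at the start and at -44.8 kb and a NOTCH2 region lie above 1, and the tallest regions of JAG1 and DLL1 and a NOTCH1 region lie below.

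Regions in 1 list alone were mostly low. The 33 lactate-only regions had 6 to 84 summit tags with a median of 19, while the shared regions had a median of 34.5 lactate tags. The 6 untreated-only regions had 7 to 27 tags with a median of 11.5, and the shared regions a median of 25.5 untreated tags. Over all regions the median was 11 tags in the lactate-only and 11 in the untreated-only class. No start-site region of a member was in 1 list alone. Besides the 9 start-site regions, all shared, the gene bodies held 14 shared, 5 lactate-only and 2 untreated-only regions. The flanks held 49 shared, 28 lactate-only and 4 untreated-only ones.

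**Figure D4:**
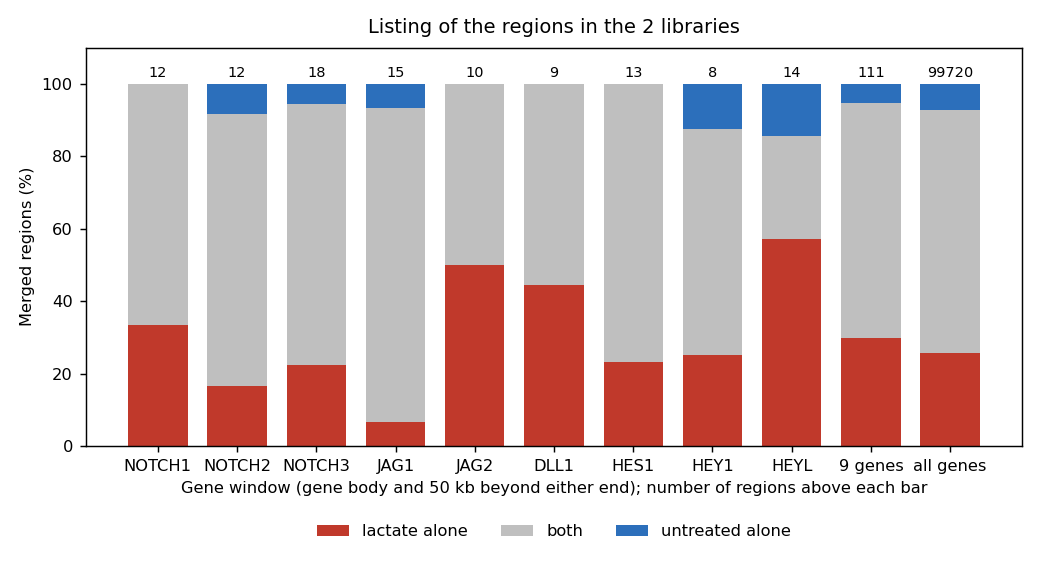
Share of the merged regions (vertical axis, percent) listed in the lactate library alone, in both, or in the untreated library alone, for each of the 9 gene windows, for the 9 together and for all regions within 50 kb of a protein-coding gene, with the number of regions above each bar. The 9 genes together, at 29.7% lactate-only, resemble all genes at 25.6%, and single genes range from 6.67% at JAG1 to 57.1% at HEYL.

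The windows take in neighbouring genes. Of the 111 regions, 69 lie nearer to the start of the member than to any other annotated protein-coding start. They range from 15 of 15 at JAG1 and 8 of 8 at HEY1 to 5 of 18 at NOTCH3. Either annotated end counted as a start for genes without a promoter entry, DLL1 and HEY1 among them. The division into own and neighbouring starts is therefore approximate. The 46 shared regions among the 69 had a median relative ratio of 0.976, and the 26 nearer to a neighbour's start one of 1.16. All 3 regions at 1.5 or more were nearer to a neighbour. At the edge of the windows, a region 49.0 kb from NOTCH3 (23 lactate and 16 untreated tags) is just inside and one 50.7 kb away (23 lactate and 17 untreated tags) just outside. At HEYL a region at 51.6 kb with 92 lactate and 23 untreated tags fell outside, and the one at 49.1 kb with 35 lactate tags fell inside.

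The rest of the pathway was described by the start-site regions of 61 genes of 62 listed, since the corepressor gene CIR1 was not matched. A region of each list was found at 41, a region of the lactate list alone at 5, beside 5.48% of all protein-coding genes, one of the untreated list alone at 0, beside 0.601%, and none at 15. The lactate-only ones were NOTCH4, DNER, MAML3, CTBP1 and APH1B, of which the tallest were APH1B with 16 tags, DNER with 15, MAML3 with 14 and NOTCH4 with 10. The median relative ratio of the 41 was 1.16, with 26 above 1 (63.4%), beside a median of 1.04 and 54.5% above 1 over all start-site regions.

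Past 1.5 stood 3 of the 41 genes, beside 11.1% of all start-site regions, and past 1/1.5 stood 1, beside 6.27%. The 3 were APH1A, a subunit of the gamma-secretase that releases the intracellular part of the receptor, at 1.82 (1.02 to 3.40) from 44 lactate and 17 untreated tags, the cyclin D1 gene CCND1 at 1.58 (0.993 to 2.58) from 64 and 27, and the deltex ubiquitin ligase gene DTX3 at 1.51 (0.723 to 3.34) from 23 and 12. The lower one was NEURL1B, which encodes a ubiquitin ligase of Notch ligands, at 0.485 (0.256 to 0.899) from 19 lactate and 28 untreated tags. Of the 8 nuclear complex and corepressor genes with a ratio, 7 lay above 1, with a median of 1.22. So did 4 of 4 glycosylation genes with a median of 1.27, beside 54.5% of all start-site regions. In none of the genes of these groups did the interval exclude 1. The 7 genes of receptor cleavage divided, with 3 above 1 and a median of 0.712. Among them the interval excluded 1 at APH1A and, on the low side, at PSENEN (0.521 to 0.974). These groups are small, and differences between them were not tested. RBPJ itself had no region within 1 kb of its annotated start in either library. A gene with a promoter entry has 1 annotated start here, and for a gene without one either annotated end counted. Other starts of the same gene were not examined.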

How the data were processed

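ATAC-seq was run on 1 library of lactate-treated and 1 of untreated CAL27 cells, grouped by the treatment label. Per the submitters' processing notes, fastp 0.20.0, BWA 0.7.12 and MACS2 2.1.0 were used with hg38, while the file headers name MACS 2.2.7.1. The authors called each library's peaks separately, per the file headers, without a control, at a q-value threshold of 0.05, with tags shifted by 100 bp and extended to 200 bp so that they centre on the Tn5 cut, from an alignment whose name says unique and deduplicated. The deposited pileup is a signal, the number of extended tags over a summit, not scaled for depth. The deposited fold enrichment is a ratio of pileup to local background, with 1 added to each, and is the authors' own value, used only to describe or rank within a list. Start, end, width and summit were deposited in bp.

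Regions on chromosomes 1 to 22 and X that overlapped by at least 1 bp were merged (Python 3.11.15, pandas 2.3.3, scipy 1.17.1), and each library's highest pileup in a merged region was scaled by that library's total tags to RPM, tags per 1000000. The local background and the Poisson p were recomputed from pileup and fold. Ratios have exact conditional Poisson intervals. The relative-ratio code was tested on simulated data. Promoter sequences and gene coordinates are RefSeq's (GRCh38.p14), and 7 of 9 members had a promoter entry. Exons were not told from introns.

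All 9 members are named. For each, the text gives the start-site region, the tallest region of each library and the tallest in 1 list alone, and over all members the 5 highest and 5 lowest relative ratios with at least 20 tags. Of the lowest, 1 is not reported here. Pathway genes are named up to 4 per direction. The members and lists were chosen with earlier results of these data known. No test or p-value was possible with 1 library per group.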

Additional observations from a re-analysis of the deposited data

How the results depend on the processing

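Keeping regions by their nearest start and leaving out HES1 were chosen after seeing the data. No paired analysis was possible because the lactate and the untreated condition have a single library apiece, and for the same reason no replicate could be left out. Of 114 alternative values, 82 stayed within 1.5 times the reported count or inside the interval of the reported value, and 32 moved beyond that. For a start-site ratio this was the counting interval. For a median it was a binomial interval taken from the spread of the members' regions. No value whose interval excluded 1 changed sides, but others crossed 1. Scaled to a median ratio of 1, the start-site ratio was 0.809 at NOTCH2 and 0.995 at DLL1. The relative ratio at the NOTCH1 start was 0.973 with narrow regions left out of the regions of equal height or with those near gene ends alone. The members' median relative ratio was 0.976 over regions nearest to the own start. The reported counts are 72 regions in both lists, 33 in the lactate list alone and 6 in the untreated list alone. Windows of 10 kb gave 30, 12 and 2, gene bodies 21, 5 and 2, and regions nearest to the member's own start 46, 20 and 3, by construction from fewer regions. The lactate-only count stayed above the untreated-only one in every setting, narrowly at equal list length, with 20 and 18. Untreated-only regions numbered 1 at a recomputed p of 1e-07 or lower, 17 at a reciprocal overlap of 50%, and 10 without narrow regions. Regions with a ratio above 1 numbered 30 of 30 within 10 kb, 21 of 21 in gene bodies and 44 of 46 nearest to the own start. Scaling to a median ratio of 1 over all shared regions put the members' median ratio at 1.04, with 42 of 72 above 1, and the HES1 start site at 1.70. Relative ratios of 1.5 or more numbered 1 within 10 kb, 0 in gene bodies, 0 nearest to the own start and 10 with summits summed. Relative ratios of 1/1.5 or less numbered 0, 0 and 1 in those windows, 7 without narrow regions and 8 with narrow regions left out of the regions of equal height. Called at 2, they numbered 1 higher and 0 lower. The cause of the moved values was not tested beyond the smaller windows. Low summits limit what can be said, as at the DLL1 region of 9 lactate and 8 untreated tags, whose ratio has an interval of 0.456 to 3.97.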

Other observations

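NOTCH2 has near-identical partial copies on chromosome 1, the NOTCH2NL genes, and reads shared between copies are lost when only uniquely mapped tags are kept. Within the gene bodies and 1 kb beyond them, NOTCH2 had 7 regions (4.43 per 100 kb), NOTCH2NLR 1 (1.41 per 100 kb), NOTCH2NLA 1 (1.25), NOTCH2NLB 1 (0.891) and NOTCH2NLC 5 (6.16). The tallest regions had 31 lactate and 27 untreated tags at NOTCH2NLR, 20 and 15 at NOTCH2NLA, 10 and 16 at NOTCH2NLB, and 45 and 32 at NOTCH2NLC. NOTCH2 itself reached 31 lactate and 19 untreated tags in the same span. The copies cannot be told apart where their sequences are identical, so these heights, and those at the copied part of NOTCH2, are uncertain. How much signal was lost to this was not tested.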
